A study of Mus musculus with 16 samples.

Results

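The genes of cholesterol synthesis and sterol control were followed in mouse leukaemia cells whose driving fusion gene was targeted by a short hairpin RNA. The set held 30 genes, chosen by symbol from the 55487 genes of the deposited count table. It comprised 8 enzymes from the joining of acetyl units to the isoprenoid diphosphates, 11 enzymes from squalene synthesis to cholesterol, 4 genes of SREBP control, 3 of sterol uptake and transport and 4 of LXR signalling and export. All 30 were among the 14435 genes tested. The cells expressed CBFB::MYH11, the fusion made by the inversion inv(16) of acute myeloid leukaemia, together with GFP. Per the design text they carried a doxycycline-inducible hairpin against MYH11 and were grown in congenic recipient mice. GFP-positive cells were sorted after 7 days from bone marrow with doxycycline (3 mg/ml in 5% sucrose water), bone marrow control (sucrose water), spleen with doxycycline and spleen control, with 3 libraries in each group. The secondary disease group held 4 libraries of spleen cells from a separate cohort that drank doxycycline until signs of fatal disease. Control labels speak of fusion-expressing cells alone, whereas the design text has the hairpin in both arms. No group received doxycycline without the hairpin, so an effect of the drug and an effect of the knockdown cannot be told apart. The age and strain of the mice, and whether each library was a separate animal, are not given in the sources used here.

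Cells make cholesterol from acetyl-CoA through mevalonate, the isoprenoid diphosphates, squalene and lanosterol. When membrane sterol is low, SCAP escorts the SREBP precursors from the endoplasmic reticulum to the Golgi, where they are cut, and the released factor binds sterol regulatory elements of most synthesis genes together with NF-Y and SP1. When sterol is high, INSIG1 holds SCAP back, and oxysterols activate the LXR receptors, which raise the exporters ABCA1 and ABCG1. Dividing cells, blood progenitors among them, draw on this pathway for membrane and for the prenyl groups of small GTPases.

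Total expected counts were 12.26 to 39.42 M (mega-counts) per library, the lowest in secondary disease replicate 4. Several libraries stood apart. In spleen, the summed CPM (counts scaled to library size by the TMM method) of 15 erythroid genes were 7590, 95125 and 43660 in doxycycline replicates 1, 2 and 3, against 5042 to 7292 in controls, and in bone marrow they were 53014 to 65483 with doxycycline, against 4150 to 6874 in controls. All 15 were detected in every group. The sum of 10 immature myeloid and mast cell markers was 1689 to 1839 CPM in bone marrow with doxycycline and 2502 to 2560 in bone marrow controls, and spleen doxycycline replicate 2 had the lowest sum of all, 435. Secondary disease replicate 4 held 7.78% mitochondrial counts and 499 CPM of the proliferation marker Mki67, against 3.16 to 5.31% and 1115 to 1308 CPM in the other secondary disease libraries. In a sorted bulk sample, fewer cells of a type and less RNA per cell cannot be told apart.

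The start regions of the genes are shown first because the known SREBP co-factors bind there. RefSeq start regions of GRCm38.p6, from 250 bases before to 50 bases after the start of transcription, matched 24 of the 30 genes, with no entry for Fdps, Fdft1, Sqle, Stard4, Npc1 and Abcg1. The sterol regulatory element was searched as TCACNCCAC, the NF-Y box as CCAAT, the SP1 GC box as GGGCGG and the E-box as CACGTG, each on both strands, and none of these letter strings contains another. The sterol element was found in 1 of the 24, Hmgcs1 (4.17%), against 1.41% of 17491 protein-coding genes. Only these exact letters were searched, so variants of the element were not counted and the other start regions may hold them. An NF-Y box was found in 79.2% of the 24 genes, against 42.3% of the protein-coding genes. A GC box was found in 83.3% of them, against 49.2%, and an E-box in 25%, against 8.91%. These shares describe letter matches in this window and no binding was measured. The 5 genes with the smallest p in bone marrow that have an entry are printed 5′ to 3′ on the strand of the gene, followed by Lss, an enzyme of the same route whose bone marrow groups overlapped. Capitals mark the sterol element and the NF-Y boxes in either orientation. Positions are counted from the start of transcription, and the regions are chr13:119690101-119690400, plus strand (Hmgcs1), chr5:28071162-28071461, plus strand (Insig1), chr5:4104648-4104947, minus strand (Cyp51), chr13:8885356-8885655, plus strand (Idi1), chr8:64733529-64733828, minus strand (Msmo1) and chr10:76531355-76531654, plus strand (Lss).
Hmgcs1: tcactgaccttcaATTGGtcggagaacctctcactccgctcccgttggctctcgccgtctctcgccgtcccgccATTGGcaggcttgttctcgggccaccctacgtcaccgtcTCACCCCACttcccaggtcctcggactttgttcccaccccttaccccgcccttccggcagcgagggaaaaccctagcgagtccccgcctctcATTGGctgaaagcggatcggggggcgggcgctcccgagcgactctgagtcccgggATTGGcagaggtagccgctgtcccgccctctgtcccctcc
Insig1: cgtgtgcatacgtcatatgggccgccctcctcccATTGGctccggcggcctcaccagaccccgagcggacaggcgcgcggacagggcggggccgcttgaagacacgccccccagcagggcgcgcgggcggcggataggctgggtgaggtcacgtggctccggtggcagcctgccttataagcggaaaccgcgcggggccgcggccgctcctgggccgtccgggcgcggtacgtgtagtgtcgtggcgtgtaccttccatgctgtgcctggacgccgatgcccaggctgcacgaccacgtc
Cyp51: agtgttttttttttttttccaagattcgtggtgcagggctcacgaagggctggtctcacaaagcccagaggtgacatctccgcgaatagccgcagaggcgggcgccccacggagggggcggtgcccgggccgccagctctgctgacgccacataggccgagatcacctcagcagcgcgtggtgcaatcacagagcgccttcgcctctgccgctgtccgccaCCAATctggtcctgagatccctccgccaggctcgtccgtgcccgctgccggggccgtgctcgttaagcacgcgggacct
Idi1: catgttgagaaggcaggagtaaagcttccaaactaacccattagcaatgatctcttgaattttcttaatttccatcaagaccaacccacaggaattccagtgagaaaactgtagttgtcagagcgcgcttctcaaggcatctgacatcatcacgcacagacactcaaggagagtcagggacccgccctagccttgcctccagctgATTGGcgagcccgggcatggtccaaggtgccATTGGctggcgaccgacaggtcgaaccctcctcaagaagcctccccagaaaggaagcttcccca
Msmo1: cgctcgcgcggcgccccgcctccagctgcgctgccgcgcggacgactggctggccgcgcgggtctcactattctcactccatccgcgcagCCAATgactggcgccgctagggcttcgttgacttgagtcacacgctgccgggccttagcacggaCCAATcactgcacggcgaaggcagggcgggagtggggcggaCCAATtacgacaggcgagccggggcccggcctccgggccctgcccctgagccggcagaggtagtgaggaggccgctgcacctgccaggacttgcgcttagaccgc
Lss: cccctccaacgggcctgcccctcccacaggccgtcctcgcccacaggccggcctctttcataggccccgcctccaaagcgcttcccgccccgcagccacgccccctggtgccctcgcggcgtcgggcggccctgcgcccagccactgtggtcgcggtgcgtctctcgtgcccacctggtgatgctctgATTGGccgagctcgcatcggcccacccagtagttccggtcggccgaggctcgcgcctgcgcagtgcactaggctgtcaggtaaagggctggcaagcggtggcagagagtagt
In Hmgcs1 the sterol element begins at base −137, and of its NF-Y boxes the nearest upstream of the start begins at −45. Msmo1 carries 3 NF-Y boxes, beginning at −160, −96 and −55, Idi1 carries 2, at −45 and −14, and Insig1 and Cyp51 carry 1 each, at −216 and −29. Lss, with 1 box at −62, shares this feature with the others.

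Levels between genes were compared on the deposited TPM scale, which accounts for length. In bone marrow controls Fdps, the farnesyl diphosphate synthase that supplies both squalene and prenyl groups, had the highest mean level of the 30 (80.7 ± 3.71 TPM, SD, n = 3). Srebf2 (76.8 ± 15.3), the LXR gene Nr1h2 (76.7 ± 19.3), Srebf1 (73.3 ± 15.8), Fdft1 (68.3 ± 12.3) and Scap (62.1 ± 9.44) followed, and each of these neighbours lay within the spread of the next. Ebp (39.8 ± 3.12 TPM), Sqle (33.8 ± 1.92) and Stard4 (31.0 ± 4.08) came after them. At the low end stood Mvd (4.52 ± 0.779 TPM), Tm7sf2 (4.33 ± 0.991), Nr1h3 (0.513 ± 0.371) and Abca1 (0.133 ± 0.0702). Both genes of SREBP, their escort and the broadly expressed LXR gene thus ranked beside the most abundant enzymes, while the other LXR gene and the exporter Abca1 were close to 0. Over all 16 libraries Nr1h3 had 0 to 31 expected counts and Abca1 2 to 208. Fdps also had the highest mean in secondary disease (114 ± 12.6 TPM, n = 4), spleen with doxycycline (92.8 ± 17.1) and spleen controls (104 ± 1.99). In bone marrow with doxycycline the highest means were those of Nr1h2 (80.9 ± 9.63 TPM) and Srebf1 (75.2 ± 11.7), with Fdps at 57.2 ± 4.35.

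Many synthesis enzymes measured lower in all bone marrow libraries with doxycycline than in all bone marrow controls, but the test across all genes called only Hmgcs1, the cytosolic HMG-CoA synthase early in the route. Hmgcs1 fell to 0.51 of its control level. Of the 30 genes, 1 was called and it was lower, against 6.57% of all genes tested called in either direction, so the share called was not above the background. All 3 doxycycline libraries lay below all 3 controls for 14 of the 30 genes, against 24.6% of all genes tested. All 3 lay above for 4 genes (Sqle, Srebf1, Npc1 and Nr1h2), against 23.1% of all genes. Among the 19 synthesis enzymes, 11 lay wholly below, 1 lay wholly above and 7 overlapped. The median log2 fold change was −0.34 over these 19 enzymes, −0.26 over the 30 genes and −0.03 over all genes tested. Without adjustment, 10 of the 30 genes had a p under 0.05 in the lower direction and 1 in the higher direction, together 36.7% of the members, beside 21.9% of all genes tested. The heat map shows these members library by library.

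**Figure D1:**
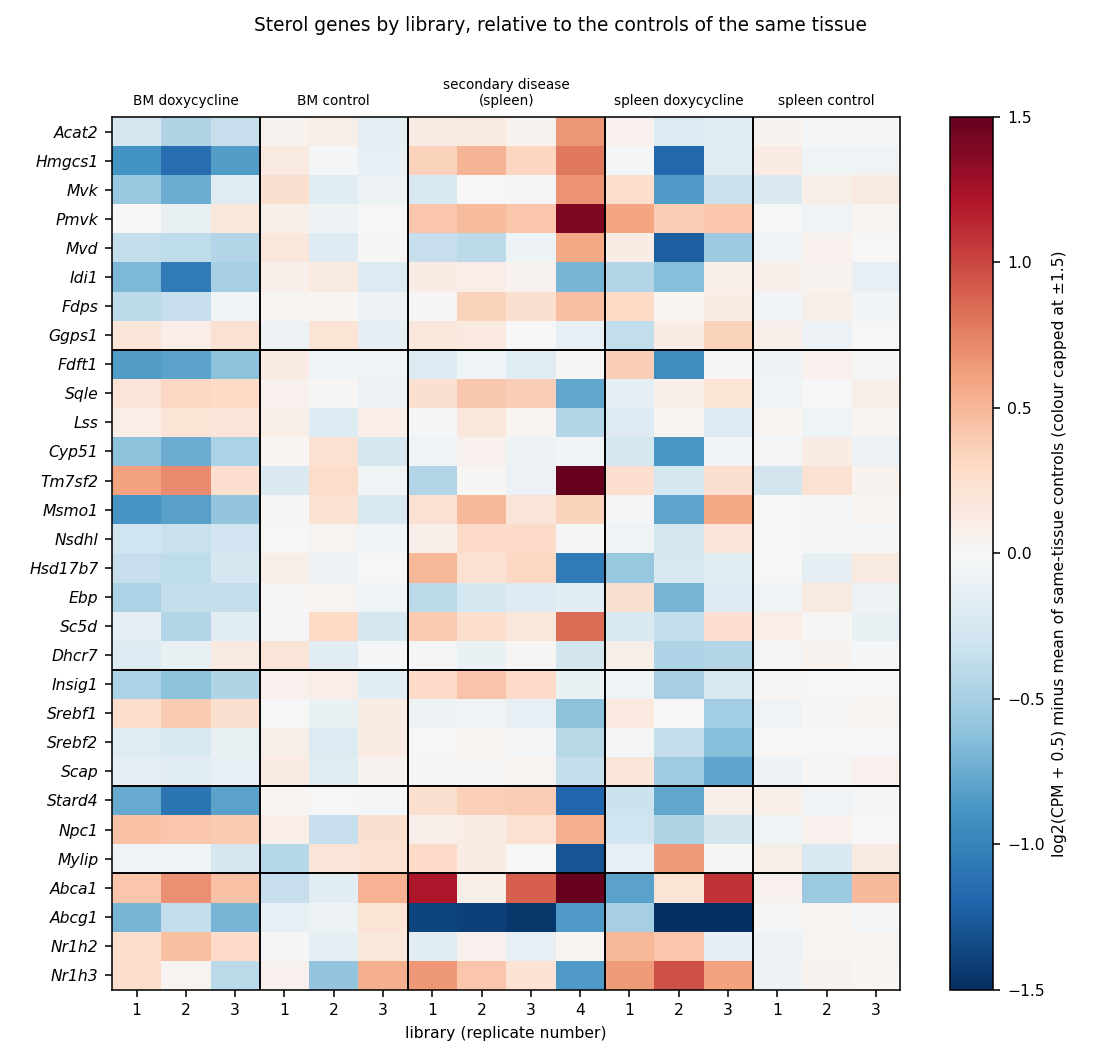
Heat map of the 30 sterol genes (rows, in order of role, with lines between roles) in 16 libraries (columns, by group and replicate number). Colour gives the log2 of CPM plus 0.5 minus the mean of the controls of the same tissue, with red higher and blue lower. The blue entries of Hmgcs1, Idi1, Fdft1, Cyp51, Msmo1, Insig1 and Stard4 run through all 3 bone marrow doxycycline libraries and through spleen doxycycline replicate 2.

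Among the enzymes from acetyl units to isoprenoids, 5 of 8 had bone marrow groups that did not overlap, all of them lower with doxycycline. Hmgcs1 (ENSMUSG00000093930, chromosome 13, 119690379 to 119708260, plus strand, GRCm38), whose start region carries the sterol element shown above, had 23.9, 20.1 and 25.0 CPM in bone marrow with doxycycline, against 49.6, 44.6 and 41.3 in controls. The highest doxycycline library lay well under the lowest control. The log2 fold change was −0.97 ± 0.24 (approximate SE, adjusted p = 0.0291, edgeR quasi-likelihood test with Benjamini-Hochberg adjustment). Leaving out any 1 of the 6 bone marrow libraries took this call away, with log2 fold changes of −1.06 to −0.88 and adjusted p between 0.0639 (without control replicate 3) and 0.128 (without doxycycline replicate 2). Across all genes, 0.154 to 1.55% were called in these fits, against 6.57% with every library. Idi1 (ENSMUSG00000058258, chromosome 13, 8885501 to 8892451, plus strand), the isomerase of the isoprenoid units, had 26.4, 20.1 and 29.9 CPM with doxycycline, against 44.8, 46.6 and 36.8 in controls. Its groups were also apart, and its log2 fold change of −0.75 ± 0.24 did not pass (adjusted p = 0.0733). Acat2 (27.0, 23.6 and 25.5 CPM, against 33.7, 34.4 and 29.3 in controls), which joins acetyl units and has a near-identical neighbour in Acat3 that may share its reads, and Mvd, the mevalonate diphosphate decarboxylase (4.01, 3.90 and 3.75 CPM, against 6.0, 4.54 and 5.33), were lower by smaller margins. Mevalonate kinase, Mvk, averaged 9.79 ± 2.13 CPM with doxycycline and 13.9 ± 2.23 in controls, without overlap. Fdps overlapped by a single library, with 46.7, 48.3 and 59.4 CPM with doxycycline, against 63.6, 62.7 and 58.5 in controls (log2 fold change −0.26 ± 0.14, adjusted p = 0.297). Phosphomevalonate kinase, Pmvk, had 15.7, 14.6 and 17.7 CPM, against 16.6, 14.9 and 15.8, and Ggps1, which makes the longer prenyl donor, averaged 39.7 ± 1.84, against 35.4 ± 4.67. These last 2 genes had log2 fold changes of 0.02 ± 0.23 and 0.16 ± 0.17.

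Of the 11 enzymes from squalene to cholesterol, 6 lay wholly lower in bone marrow with doxycycline and 1 wholly higher. Fdft1 (ENSMUSG00000021273, chromosome 14, 63145150 to 63179578, minus strand), the squalene synthase that commits farnesyl units to sterols, had 60.8, 62.4 and 71.5 CPM with doxycycline, against 119, 105 and 105 in controls. The gap between these groups was wide next to the spread in either, and the log2 fold change was −0.75 ± 0.23 (adjusted p = 0.0657). Sqle (ENSMUSG00000022351), the squalene epoxidase of the next step, averaged 81.4 ± 3.57 CPM with doxycycline and 67.4 ± 3.52 in controls. Its doxycycline libraries were all higher than its controls, with a log2 fold change of 0.27 ± 0.23 (adjusted p = 0.560). The lanosterol synthase Lss, the third step, overlapped, with 31.1, 33.5 and 33.2 CPM, against 30.8, 25.4 and 31.2 in controls. Cyp51 (ENSMUSG00000001467, chromosome 5, 4081145 to 4104746, minus strand), which removes the first methyl group of lanosterol, had 17.6, 16.1 and 19.5 CPM with doxycycline, against 27.9, 32.0 and 22.8 in controls (log2 fold change −0.64 ± 0.19, adjusted p = 0.0593). Msmo1 (ENSMUSG00000031604, chromosome 8, 64718139 to 64733792, minus strand), the methylsterol oxidase that acts after it, had 10.8, 11.4 and 13.4 CPM, against 20.6, 23.9 and 17.2 (log2 fold change −0.79 ± 0.26, adjusted p = 0.0845). Nsdhl, its partner in demethylation, showed a smaller gap with little spread, at 17.9, 17.4 and 18 CPM, against 22.3, 22.8 and 21.3 (log2 fold change −0.32 ± 0.14, adjusted p = 0.199). The sterol isomerase Ebp had 27.9, 30.4 and 30.5 CPM, against 39.5, 40.1 and 37.7, with a log2 fold change of −0.40 ± 0.18 (adjusted p = 0.213). Hsd17b7, the ketosteroid reductase of the demethylation complex, averaged 16.3 ± 0.690 CPM, against 20.6 ± 1.23. Among the late enzymes Sc5d (16.9, 13.7 and 16.8 CPM, against 18.3, 23.2 and 15.5) and Dhcr7 (28.2 ± 3.58 CPM, against 29.4 ± 3.71) overlapped with controls, as did the sparse reductase Tm7sf2 (3.92 ± 0.713 CPM, against 2.58 ± 0.545), whose reads may be shared with Vps51 on the same strand.

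The genes that sense and move sterol were mixed in bone marrow. Insig1 (ENSMUSG00000045294, chromosome 5, 28071363 to 28078662, plus strand), itself an SREBP target and the anchor that keeps SCAP in the endoplasmic reticulum, had 24.0, 21.7 and 24.4 CPM with doxycycline, against 35.2, 36.0 and 30.1 in controls. Its groups stood apart and it was the member nearest to the threshold without passing, with a log2 fold change of −0.53 ± 0.15 (adjusted p = 0.0514). Srebf2, the SREBP gene of cholesterol synthesis, had 212, 206 and 223 CPM, against 256.5, 208 and 262 (log2 fold change −0.18 ± 0.16). Srebf1, the SREBP gene of fatty acid synthesis, averaged 194 ± 11.1 CPM with doxycycline and 158 ± 11.6 in controls (log2 fold change 0.30 ± 0.18, adjusted p = 0.363), and Scap averaged 143 ± 1.96 CPM, against 159 ± 17.1. Stard4 (ENSMUSG00000024378, chromosome 18, 33199355 to 33213862, minus strand), a carrier of cholesterol between membranes and an SREBP target, had 54.4, 43.0 and 53.0 CPM with doxycycline, against 94.2, 92.2 and 91.0 in controls. After Hmgcs1 this was the most negative log2 fold change of the 30, −0.88 ± 0.31, and it did not pass (adjusted p = 0.109). Npc1, which lets cholesterol out of lysosomes, had 30.2, 29.8 and 29.1 CPM, against 23.7, 17.4 and 26.3 (log2 fold change 0.40 ± 0.16, adjusted p = 0.161). Its doxycycline libraries were all higher and close together. Mylip, which marks lipoprotein receptors for degradation, overlapped (30.9 ± 2.36 CPM, against 34.5 ± 8.30). Abcg1, an exporter of cholesterol to high-density lipoprotein, had 53.5, 67.4 and 53.3 CPM, against 79.5, 82.3 and 100.2 (log2 fold change −0.59 ± 0.41, adjusted p = 0.467). Nr1h2 had 95.0, 108 and 96.4 CPM, against 77.8, 71.6 and 89.0 (log2 fold change 0.33 ± 0.16, adjusted p = 0.237). Abca1 (1.23 ± 0.179 CPM, against 0.752 ± 0.423) and Nr1h3 (0.518 ± 0.226 CPM, against 0.577 ± 0.401) were too low to compare.

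**Figure D2:**
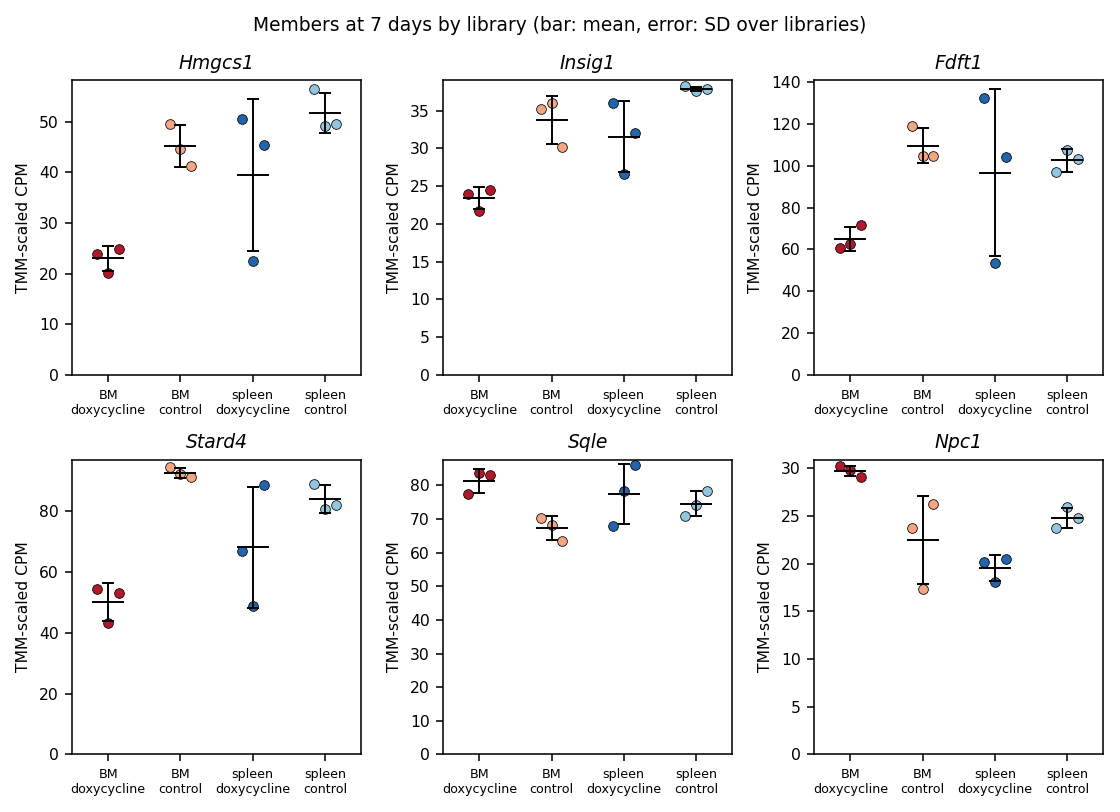
CPM of 6 sterol genes at 7 days in bone marrow (BM) and spleen, with points for libraries, horizontal bars for means and error bars for the SD over 3 libraries. In bone marrow Hmgcs1, Insig1, Fdft1 and Stard4 are wholly lower with doxycycline and Sqle and Npc1 wholly higher, while in spleen the doxycycline libraries of Hmgcs1 spread between 22.5 and 50.6 CPM.

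How many bone marrow differences passed varied with the libraries in the model and with the test. When the model held nothing but the 6 bone marrow libraries, 16 of the 30 genes were called, 12 lower and 4 higher, but so were 36.6% of all genes tested. The 12 were Acat2, Hmgcs1, Idi1, Fdft1, Cyp51, Msmo1, Nsdhl, Hsd17b7, Ebp, Insig1, Stard4 and Abcg1, and the 4 were Sqle, Srebf1, Npc1 and Nr1h2. Leaving out secondary disease replicate 4 alone gave 7 calls, all lower (Acat2, Hmgcs1, Idi1, Fdft1, Cyp51, Insig1 and Stard4), beside 17.0% of all genes. The Wald test of DESeq2 gave 6, all lower (Hmgcs1, Idi1, Fdft1, Cyp51, Msmo1 and Insig1), beside 13.8% of all genes. No member that was called in any of these settings changed its direction between them.

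In spleen at 7 days no member passed the test, and the 3 doxycycline libraries differed widely among themselves. None of the 30 was called, beside 0.741% of all genes tested (edgeR), and 1 of them, Abcg1, had an unadjusted p under 0.05, beside 12.4% of all genes. All 3 doxycycline libraries lay below all controls for 5 genes (Hsd17b7, Insig1, Srebf2, Npc1 and Abcg1), against 10.7% of all genes, and above for 2 (Pmvk and Nr1h3), against 9.34%. The synthesis enzymes had a median log2 fold change of −0.11, beside 0.02 over all genes. Hmgcs1 had 50.6, 22.5 and 45.4 CPM with doxycycline, against 56.3, 49.2 and 49.5 in spleen controls, so that replicate 2 was as low as the bone marrow doxycycline libraries and replicates 1 and 3 were near the controls. Fdft1 repeated this order with 132, 53.4 and 104 CPM, against 96.7, 107 and 103. Msmo1 had 20.9, 12.2 and 32.2 CPM, against 21.4, 21 and 21.8. Replicate 2 was thus the low library for each of them, and replicate 3 the high one for Msmo1. Replicate 2 also had 2567 CPM of Mki67, against 876 in replicate 1 and 1176 in replicate 3, and 54.2 CPM of Cbfb, against 117 and 119. Replicate 3 held 5.20% mitochondrial counts, against 2.28% in replicate 1 and 2.14% in replicate 2. The part of these in the sterol gene values was not tested. Stard4 (66.9, 48.6 and 88.4 CPM, against 88.9, 80.5 and 81.9), Idi1 (39.5, 34.3 and 56.9, against 56.5, 55.4 and 49.0), Cyp51 (30.2, 19.7 and 35.5, against 35.8, 39.3 and 34.4) and Mvd (9.89, 3.59 and 6.12, against 8.80, 9.58 and 9.08) were likewise lowest in replicate 2. Ebp was lowest there as well (46.6, 24.1 and 34.2 CPM, against 37.8, 43.3 and 37.4), and so was Insig1 (36.0, 26.6 and 32.1, against 38.2, 37.6 and 37.8).

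The exporter Abcg1 had the most negative log2 fold change in spleen. It had 89.2, 17.9 and 27.5 CPM with doxycycline, against 125, 130.0 and 125 in controls (log2 fold change −1.49 ± 0.42, adjusted p = 0.115). Every doxycycline library was lower, replicates 2 and 3 by far. The Wald test of DESeq2 called it (adjusted p = 0.0116), as the only 1 of the 30 beside 4.95% of all genes, and so did edgeR without doxycycline replicate 1 (log2 fold change −2.48, adjusted p = 4.65e-05), when Scap was called as well, beside 9.13% of all genes. Npc1 had 20.1, 18 and 20.5 CPM, against 23.8, 25.9 and 24.8 (log2 fold change −0.34 ± 0.16, adjusted p = 0.422). Srebf2 had 273, 215 and 177 CPM, against 276, 274 and 277 (log2 fold change −0.31 ± 0.16, adjusted p = 0.481). Pmvk was higher in all 3, with 21, 17.9 and 18.4 CPM, against 13.8, 13.2 and 14.2 (log2 fold change 0.48 ± 0.23, adjusted p = 0.432), and it was called once secondary disease replicate 4 was left out (adjusted p = 0.0321), beside 5.37% of all genes. Nr1h2 had 119.6, 113 and 76.5 CPM, against 79.6, 87.1 and 87.3. The remaining members overlapped in spleen, apart from Nr1h3 at 0.861 to 1.24 CPM, against 0.352 to 0.430, and Hsd17b7 at 14.1 to 18.8, against 19 to 23.2. In spleen the other members described by library were Acat2 (36.5, 30.1 and 30.7 CPM with doxycycline, against 36.2, 34.2 and 34.3 in controls), Fdps (96.4, 80.0 and 84.7, against 76.1, 83.3 and 76.2), Nsdhl (21.6, 18.5 and 25.7, against 22.6, 22.8 and 21.9) and Lss (34.5, 40.4 and 34.4, against 40.6, 37.9 and 40.6). Fdps had 2 doxycycline libraries above every control and Lss had 2 below, and all 4 genes overlapped with their controls. Nr1h3 is close to the counting floor of 3 counts per library, which limits any fold.

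Whether the doxycycline effect differed between the tissues was tested as a difference of the 2 log2 fold changes, spleen minus bone marrow. None of the 30 genes passed, beside 0.0485% of all genes (edgeR), and 2 had an unadjusted p under 0.05, beside 7.63% of all genes, so the lower values in bone marrow were not shown to be confined to that tissue. Npc1 gave −0.75 ± 0.23 (adjusted p = 0.336), being wholly higher in bone marrow and wholly lower in spleen. Msmo1 gave 0.82 ± 0.37 (adjusted p = 0.627), Fdft1 0.67 ± 0.32 (adjusted p = 0.682), Hmgcs1 0.58 ± 0.33 (adjusted p = 0.758) and Fdps 0.41 ± 0.19 (adjusted p = 0.668). The calls changed with spleen doxycycline replicate 2. Without it, Fdft1 (0.96, adjusted p = 0.00874), Msmo1 (1.11, adjusted p = 0.0302) and Hmgcs1 (0.87, adjusted p = 0.0362) were called, beside 4.32% of all genes. Without spleen doxycycline replicate 1, Abcg1 was the single call, in the lower direction, beside 0.248% of all genes.

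**Figure D3:**
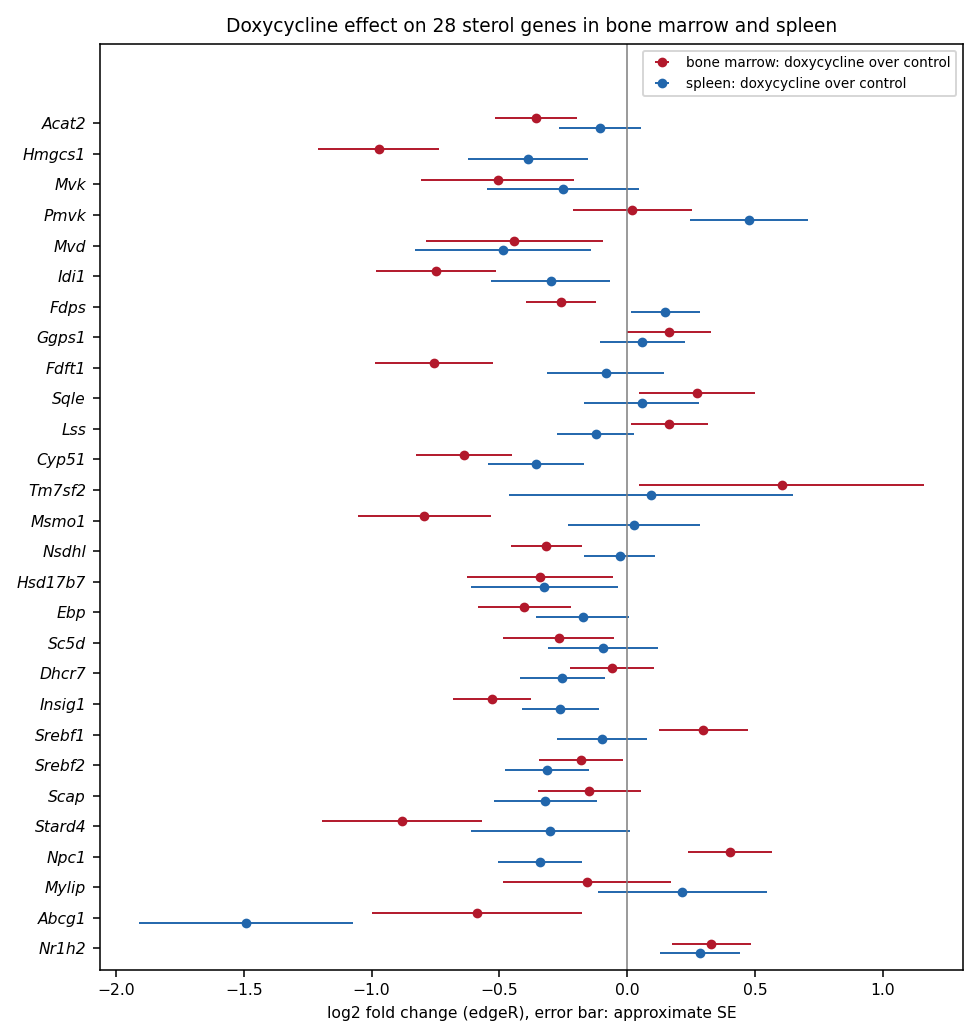
Log2 fold changes of doxycycline over control in bone marrow (red) and spleen (blue) for 28 sterol genes, with approximate SE bars from edgeR. Abca1 and Nr1h3, with very low counts, are left out. Bone marrow points lie left of 0 for most synthesis enzymes, and the most negative value is that of Abcg1 in spleen (−1.49).

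The library medians placed spleen doxycycline replicate 2 beside the bone marrow doxycycline libraries. Relative to the controls of the same tissue, the 19 synthesis enzymes had a median log2 difference of −0.34, −0.39 and −0.27 in bone marrow doxycycline replicates 1, 2 and 3, and of −0.03, −0.36 and 0.02 in the spleen doxycycline replicates. Of the 19, 13, 14 and 11 lay below every control in the bone marrow libraries, and 9, 13 and 8 in the spleen libraries. Of all genes tested, 36.3, 35.5 and 35.9% lay below every control in the bone marrow libraries, and 39.1, 41.9 and 40.6% in the spleen libraries. On the deposited TPM scale (log2 with a pseudocount of 0.1) the medians were lower in both tissues, and so was that of all genes. The synthesis median was −0.57 in bone marrow with doxycycline, beside −0.23 over all genes tested, and −0.54 in spleen with doxycycline, beside −0.34. The 4 secondary disease libraries had medians of 0.08, 0.15, 0.05 and 0.02. Erythroid counts moved with this, though not in step. Spleen doxycycline replicate 1, with erythroid counts close to control, and replicate 3, with 43660 CPM, both had synthesis medians near 0, whereas replicate 2, with 95125 CPM, and the bone marrow libraries, with 53014 to 65483, had low medians. With doxycycline, all 15 erythroid genes had a positive log2 fold change in both tissues, with medians of 3.22 in bone marrow and 3.52 in spleen. Of the 15, 12 were called higher in bone marrow and 6 in spleen (edgeR), beside 6.57% and 0.741% of all genes called. The immature myeloid and mast cell markers summed to 2132 CPM in spleen doxycycline replicate 1 and 2970 in replicate 3. Markers of other cells were lower in sum, although sums over different genes do not compare cell numbers. With doxycycline they reached at most 691 CPM for 14 neutrophil genes, 68.3 for 16 monocyte and macrophage genes, with Marco at 0 in bone marrow, 160 for 12 B and plasma cell genes, 16.4 for 12 T and NK cell genes, and 254 for 12 endothelial and stromal genes, with Cdh5, Emcn and Col3a1 at 0 in spleen. In controls of both tissues the highest sums were 1364, 73.9, 74.6, 19.7 and 226 CPM in the same order, with Emcn at 0 in bone marrow controls and Ebf1, Klrb1c, Emcn, Col1a2 and Col3a1 at 0 in spleen controls. The part of the erythroid or other cells in the sterol gene values was not tested.

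**Figure D4:**
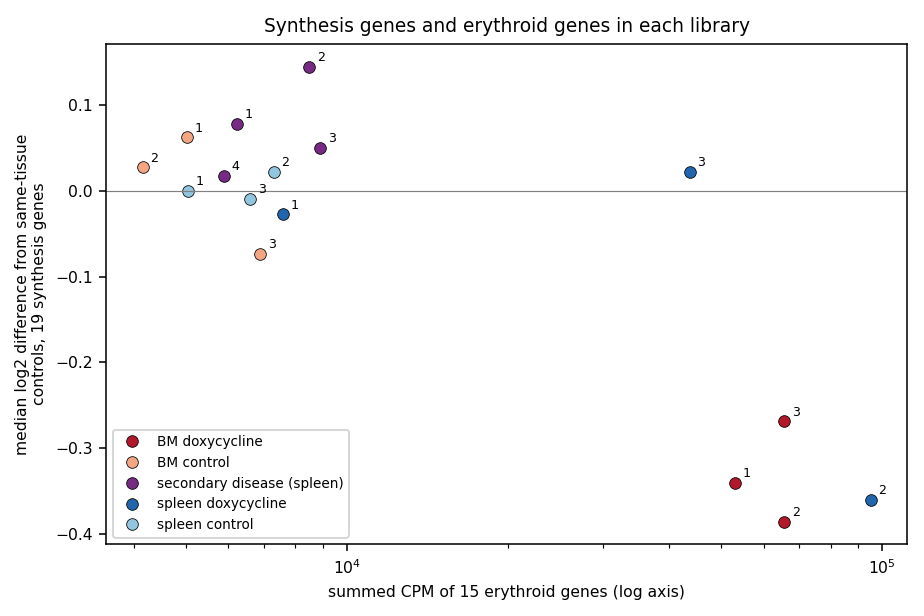
Median log2 difference of 19 synthesis enzymes from the controls of the same tissue (vertical axis) against the summed CPM of 15 erythroid genes (horizontal log axis), with a point per library and its replicate number. The bone marrow doxycycline libraries and spleen doxycycline replicate 2 sit at the lower right, and spleen doxycycline replicate 3 sits at 43660 CPM with a median of 0.02.

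Without doxycycline, most synthesis genes measured higher in spleen than in bone marrow, and no member passed. Neutrophil markers in the same libraries summed to 55.9 to 176 CPM in spleen controls, against 920 to 1364 in bone marrow controls. All 14 genes were negative (median log2 fold change −3.37) and 0 were called (edgeR), beside 0.187% of all genes. The part of neutrophils in the sterol gene values was not tested. None of the 30 was called for spleen control over bone marrow control, beside 0.187% of all genes (edgeR), and 4 had an unadjusted p under 0.05, beside 6.92% of all genes. The log2 fold change was positive for 24 of 30 genes, and all 3 spleen controls lay above all bone marrow controls for 9, against 16.3% of all genes. The synthesis enzymes had a median of 0.15, beside −0.01 over all genes tested. Lss had 40.6, 37.9 and 40.6 CPM in spleen controls, against 30.8, 25.4 and 31.2 in bone marrow controls (log2 fold change 0.45 ± 0.15, adjusted p = 0.368). Fdps had 76.1, 83.3 and 76.2 CPM, against 63.6, 62.7 and 58.5 (0.35 ± 0.14, adjusted p = 0.513). Mvd had 8.80, 9.58 and 9.08 CPM, against 6.0, 4.54 and 5.33 (0.79 ± 0.35, adjusted p = 0.645), and Cyp51 had 35.8, 39.3 and 34.4, against 27.9, 32.0 and 22.8 (0.40 ± 0.19, adjusted p = 0.722). These 4 genes did not overlap between the tissues. Mylip, Stard4 and Pmvk were the genes wholly lower in spleen controls, with log2 fold changes of −0.63 ± 0.33, −0.14 ± 0.31 and −0.20 ± 0.23, and these 3 compare with 16.5% of all genes.

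In secondary disease 12 of the 19 synthesis genes had a positive log2 fold change against spleen control and 7 a negative one, and the exporter Abcg1 measured lower in every library. None of the 30 genes was called against spleen control, beside 2.03% of all genes (edgeR), with 5 at an unadjusted p under 0.05, beside 15.1% of all genes. All 4 secondary disease libraries lay above all controls for 5 genes (Hmgcs1, Pmvk, Msmo1, Sc5d and Npc1), against 8.85% of all genes, and below for 2 (Ebp and Abcg1), against 12.4%. Hmgcs1 had 65.8, 73.9, 64.7 and 89.9 CPM in secondary disease, against 56.3, 49.2 and 49.5 in spleen controls (log2 fold change 0.51 ± 0.22, adjusted p = 0.289). Pmvk had 18.5, 19.3, 18.5 and 36.95 CPM, against 13.8, 13.2 and 14.2 (0.76 ± 0.22, adjusted p = 0.107), and without replicate 4 it was called at a smaller size (0.45, adjusted p = 0.0441), beside 3.67% of all genes. Abcg1 had 48.5, 47.7, 46.2 and 70.2 CPM, against 125, 130.0 and 125 (−1.25 ± 0.38, adjusted p = 0.125). Its highest secondary disease library lay far under the lowest control. Abca1 had 1.78, 0.547, 1.33 and 18 CPM, against 0.528, 0.172 and 0.884. The high value was that of replicate 4 alone, so the log2 fold change of 3.31 ± 1.21 (adjusted p = 0.195) became 1.16 without it (adjusted p = 0.608). In that library the sum of the monocyte and macrophage markers was 184 CPM, against 20.7 to 57.2 in the other secondary disease libraries, and its part in the Abca1 value was not tested. With DESeq2, 3 members were called (Abca1 and Pmvk higher, Abcg1 lower), beside 5.24% of all genes.

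Of the other members described by library, some kept near their spleen control values in secondary disease replicates 1 to 3 and others did not. Stard4, Msmo1 and Nsdhl lay above every spleen control in these replicates, and Mvd and Ebp lay below. Replicate 4 stood apart for some members. Stard4 had 98.9, 107, 108 and 36.4 CPM in secondary disease, against 88.9, 80.5 and 81.9 in spleen controls, and Idi1 had 58.1, 57.6, 55.7 and 32.7, against 56.5, 55.4 and 49.0. Replicate 4 was the low library for both. Acat2 had 37.7, 38.3, 36.1 and 55.6 CPM, against 36.2, 34.2 and 34.3, and Mvd had 7.08, 6.84, 8.67 and 13.9, against 8.80, 9.58 and 9.08, with replicate 4 the high library. Fdft1 (88.5, 97.8, 90.5 and 104 CPM, against 96.7, 107 and 103), Cyp51 (34.9, 38.1, 34.4 and 35.5, against 35.8, 39.3 and 34.4) and Msmo1 (25.1, 30.05, 24.5 and 27.4, against 21.4, 21 and 21.8) showed no such outlying library. Nsdhl had 23.7, 27.5, 27.4 and 22.1 CPM, against 22.6, 22.8 and 21.9, Ebp had 29.9, 32.8, 34.4 and 35.0, against 37.8, 43.3 and 37.4, and Fdps had 79.1, 99.99, 92.7 and 107, against 76.1, 83.3 and 76.2. Lss (39.2, 44.6, 40.7 and 29.2 CPM), Srebf2 (277, 284, 269.5 and 207) and Nr1h2 (75.4, 88.5, 77.3 and 86.5) overlapped with the spleen controls.

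Set against spleen doxycycline at 7 days, secondary disease had 0 members called, beside 0.928% of all genes (edgeR), with 7 at an unadjusted p under 0.05, beside 17.4% of all genes. Hmgcs1, at the levels given above, was higher in all 4 secondary disease libraries than in all 3 doxycycline libraries (log2 fold change 0.90 ± 0.22, adjusted p = 0.0706). Npc1 was the other gene without overlap on the higher side, with 26.2, 26.8, 29.0 and 36.4 CPM, against 20.1, 18 and 20.5 (0.60 ± 0.16, adjusted p = 0.0780). These 2 genes compare with 3.08% of all genes. Insig1 had 46.2, 51.0, 46.3 and 35.4 CPM, against 36.0, 26.6 and 32.1 (0.50 ± 0.14, adjusted p = 0.101), and Sc5d had 26.5, 24.3, 22.7 and 36.3, against 17.1, 15.6 and 24.0 (0.54 ± 0.20, adjusted p = 0.192). DESeq2 called Hmgcs1, Insig1 and Npc1, all higher, beside 6.0% of all genes. Without spleen doxycycline replicate 1, edgeR called 5 (Abcg1, Hmgcs1, Insig1, Npc1 and Scap, all higher), beside 8.94% of all genes, and the spleen doxycycline group keeps only replicates 2 and 3 there. Both comparisons of secondary disease use the same 4 libraries, and the comparison with 7 days also sets different cohorts and treatment times side by side.

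The 10 members not given by library had group means of 9.79 to 18.2 CPM for Mvk, 35.4 to 39.7 for Ggps1, 67.4 to 81.7 for Sqle, 2.58 to 5.38 for Tm7sf2, 16.3 to 22.7 for Hsd17b7 and 28.2 to 33.8 for Dhcr7. They were 150 to 194 CPM for Srebf1, 128 to 160 for Scap, 20.5 to 34.5 for Mylip and 0.400 to 0.999 for Nr1h3. Over the 5 pairs of groups compared, their log2 fold changes ran from −0.51 to 0.39 for Mvk, −0.25 to 0.21 for Dhcr7, −0.34 to 0.43 for Hsd17b7, −0.20 to 0.30 for Srebf1, −0.32 to 0.26 for Scap and −0.63 to 0.21 for Mylip. Ggps1 (0.00 to 0.16), Sqle (0.06 to 0.27) and Tm7sf2 (0.09 to 0.74) had hardly a negative value, and Nr1h3, with its low counts, ran from −0.84 to 1.31. None of these 10 genes was called by edgeR in the model used for these values. Under the alternatives, edgeR called Hsd17b7, Sqle and Srebf1 with only the bone marrow groups compared, beside 36.6% of all genes. Hsd17b7 was also called in secondary disease against spleen doxycycline, with the replicate block (beside 2.40%) and without secondary disease replicate 4 (beside 4.98%). Mylip was called between the controls with only those groups compared (beside 14.7%). Without spleen doxycycline replicate 1, Scap was called against spleen control (beside 9.13%) and against secondary disease (beside 8.94%).

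**Figure D5:**
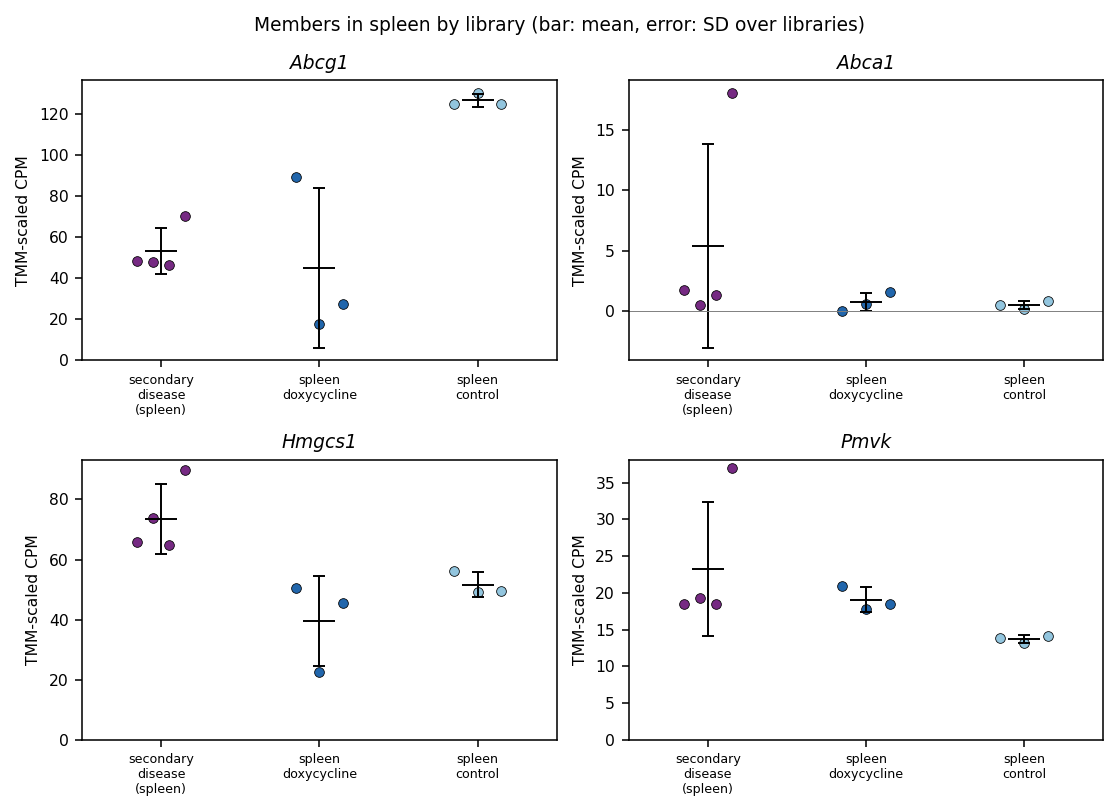
CPM of Abcg1, Abca1, Hmgcs1 and Pmvk in spleen by group, with points for libraries, horizontal bars for means and error bars for the SD (4 secondary disease libraries, 3 in each other group). Abcg1 is at 46.2 to 70.2 CPM in secondary disease and at 125 to 130.0 in controls, and the Abca1 mean rests on a single library at 18 CPM.

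Among other genes of lipid and sterol handling in bone marrow, calls went both ways, beside 6.57% of all genes called. Of 17 tested genes of fatty acid synthesis and desaturation, 2 rose, 1 fell and 14 did not pass, with a median log2 fold change of 0.11. Acss2, which makes acetyl-CoA from acetate, had 134, 147 and 141 CPM with doxycycline, against 90.3, 74.2 and 85.2 in controls (0.76 ± 0.15, adjusted p = 0.0134). Lpin1, a phosphatidate phosphatase, had 152, 160.1 and 126 CPM, against 104, 93.1 and 109 (0.52 ± 0.14, adjusted p = 0.0376). Elovl5, an elongase of polyunsaturated fatty acids, fell, with 13.2, 16.0 and 16.0 CPM, against 28.8, 32.0 and 29.8 (−1.0 ± 0.20, adjusted p = 0.0138). Of 14 tested genes of SREBP processing and sterol-regulated degradation, 1 rose, 2 fell and 11 did not pass, with a median of 0.17. Rnf145, a ubiquitin ligase of the endoplasmic reticulum, had 144, 142 and 155 CPM, against 50.9, 59.1 and 66.6 (1.32 ± 0.36, adjusted p = 0.0447). Erlin1, a membrane scaffold that restrains SREBP activation, had 27.2, 23.7 and 29.9 CPM, against 46.5, 49.6 and 44.1 (−0.79 ± 0.17, adjusted p = 0.0188), and Tmem97, a sterol-regulated receptor of the same membrane, had 22.1, 20.5 and 24.1, against 36.6, 41.9 and 29.0 (−0.69 ± 0.19, adjusted p = 0.0494). Spleen doxycycline replicate 2 was again the extreme library of its group for Rnf145 (218 CPM, against 46.9 and 95.9 in replicates 1 and 3) and for Erlin1 (23.9, against 41.5 and 40.4). No gene passed among 15 of prenyl transfer and the dolichol and ubiquinone branches (median 0.01), 18 of sterol trafficking and esterification (0.06), 11 other LXR targets and partners (−0.09) and 6 oxysterol and sterol modifying enzymes (−0.36, all 6 negative), each by edgeR in bone marrow, where the median over all genes was −0.03. In spleen at 7 days none of the 6 lists had a called gene.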

How the data were processed

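Libraries of GFP-sorted leukaemia cells (16, in 5 groups) were made after oligo-dT enrichment and the NEBNext Ultra II RNA kit per the labels' protocols. The authors deposited an expected count per gene and library, an estimate in which 5.81 to 10.9% of a library's values were not whole, and a TPM file per library. The submitters' processing notes list the build GRCm38 and, with no versions, RSEM, STAR, MultiQC, FastQC and Trim Galore. The sources used here do not state strandedness, and a gene and its antisense partner cannot be told apart (Hmgcs1 with Gm48342, Mvd with Gm20388, Idi1 with Gm48574, Ggps1 with Arid4b, Fdft1 with Ctsb, Lss with 4930483K19Rik, Cyp51 with Akap9, Srebf1 with Rai1, Scap with 5830462I19Rik, Npc1 with Rmc1). Of 55487 identifiers, 55394 matched GENCODE M21, the source of the 1-based coordinates, and 0 columns lacked a library.

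Groups and replicate numbers came from the titles. The p-values measure only how these samples spread, which may be technical. No 2 replicates agreed within sampling noise. Rounded expected counts of all 16 libraries entered 1 model of edgeR 4.0.16 (R 4.3.3; filterByExpr, TMM, robust quasi-likelihood), with p adjusted by Benjamini-Hochberg over 14435 genes and calls at an adjusted p under 0.05. The approximate SE divides the size of a log2 fold change by the root of its F statistic. The steps were tested on simulated counts. Depths were 12.26 to 39.42 M. The SD and the approximate SE include the spread between libraries. The floor of 3 counts per library covers counting error only and was not the filter. Alternatives were DESeq2 1.42.0, limma-voom 3.58.1, other scalings and filters, a replicate block, the compared groups alone and each library left out.

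The members, the lists and the naming rule were chosen with earlier results of these data known. Every-library values were given for members called in any comparison, the 12 with the smallest p in bone marrow and the 4 with the smallest p in each other comparison, and for listed genes called in bone marrow (at most 4 a list). Sqle, in the plot of members at 7 days, was chosen after its values were seen. TPM served to order genes and for 1 set of medians.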

Additional observations from a re-analysis of the deposited data

Results flagged for a closer look

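In secondary disease, replicate 4 lay far from the other 3 libraries for 9 of the 30 genes, and no other library of that group did so for any of them. It also stood apart beyond the sterol genes. Of all genes tested, 49.8% lay below every spleen control in replicate 4, against 34.6 to 36.8% in the other 3 libraries. For a single gene, chance sets a library apart in about 1 in 20 groups. The 30 genes share the same libraries, so this rate cannot be used to judge the 9. Replicate 4 was high for Acat2 (55.6 CPM), Pmvk (36.95 CPM), Tm7sf2 (13.2 CPM), Abca1 (18 CPM) and Abcg1 (70.2 CPM), and low for Idi1 (32.7 CPM), Srebf1 (112 CPM), Scap (125 CPM) and Stard4 (36.4 CPM). The same library had the lowest total count, the largest mitochondrial share and the highest sum of monocyte and macrophage markers of the group. The part of these in its sterol gene values was not tested. Of the flagged enzymes from acetyl units to isoprenoids, Acat2 and Pmvk were high in replicate 4 and Idi1 was low.

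Npc1 stood on opposite sides of its controls in the 2 tissues at 7 days, higher in all bone marrow doxycycline libraries and lower in all spleen doxycycline libraries than in their controls. The difference of the log2 fold changes, spleen minus bone marrow, was −0.75 and did not pass after adjustment over all genes.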

How the results depend on the processing

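Over 32 values of single genes and 503 alternatives, 0 changed sign, 444 stayed on the same side of the threshold, 52 came to pass it and 7 no longer did. The 32 were picked for the smallest p in these same data, so their signs were likely to hold. Hmgcs1 in bone marrow was the single called value among them, so most of the 444 stayed uncalled. Values outside the 32 did change sign. In spleen at 7 days, the log2 fold change of Msmo1 went from 0.025 to −0.101 with limma-voom. That of Mylip went from 0.215 to −0.06 without doxycycline replicate 2. For bone marrow doxycycline against control (1 called), the counts of members called were 2 with DESeq2 size factors, 3 with total counts without TMM (an alternative chosen after seeing the data), 0 without a filter, 2 at a mean count of at least 50, 6 with the DESeq2 Wald test and 16 with only the groups compared. The shares of all genes called were 6.79, 6.47, 1.23, 9.11, 13.8 and 36.6% in the same order. Without secondary disease replicate 4 the count was 7, beside 17.0% of all genes. Leaving out any bone marrow library gave 0, beside 0.154 to 1.55% of all genes. For spleen doxycycline against control (0 called), DESeq2 gave 1, leaving out a library gave 0 to 2 (2 without doxycycline replicate 1, Abcg1 and Scap), and leaving out secondary disease replicate 4 gave 1 (Pmvk). These calls stood beside 4.95, 9.13 and 5.37% of all genes in the same order. The difference between the tissues (0 called) gave 0 to 3 with a library left out (3 without spleen doxycycline replicate 2, 1 without replicate 1). The shares of all genes called there were 4.32% and 0.248%. Spleen against bone marrow controls (0 called) gave 6 with only the groups compared, beside 14.7% of all genes. Secondary disease against spleen control (0 called) gave 3 with DESeq2, 1 with only the groups compared and 0 to 1 with a library left out (Pmvk, without replicate 4). The shares of all genes were 5.24, 3.07 and 3.67%. Against spleen doxycycline (0 called) DESeq2 gave 3, beside 6.0% of all genes. Leaving out a library gave 0 to 5 (5, 1 and 2 without spleen doxycycline replicates 1 and 3 and secondary disease replicate 4). Those calls stood beside 8.94, 2.92 and 4.98% of all genes. The cause of these changes was not tested.

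With the replicate number as a block, 5 members were called in bone marrow, beside 13.6% of all genes, and 2 in secondary disease against spleen doxycycline, beside 2.40%. Same-numbered libraries did not consistently deviate together (30 pairs, r between −0.46 and 0.33, 7 over 0.1). With so few libraries in a group, deviations depend on each other and on single outlying libraries. These correlations therefore cannot decide whether the numbers pair the samples, and the labels do not state it. Total counts without TMM moved the median of all genes in spleen with doxycycline to −0.08, from 0.02 with TMM, and the genes with a negative log2 fold change were then 24 of 30, against 20 of 30 with TMM. In bone marrow they were 22 and 21. Depth limits Abca1, Nr1h3 and Tm7sf2.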
